A study of Mus musculus with 12 samples.

Results

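The Fc gamma receptors are the proteins with which microglia, macrophages, monocytes and neutrophils bind IgG, and 8 genes of this system were followed in pericontusional mouse brain. They are the receptor genes Fcgr1, Fcgr3, Fcgr4 and Fcgr2b, the signalling adaptor Fcer1g, the kinase Syk, the lipid phosphatase Inpp5d and the neonatal Fc receptor Fcgrt. The members were chosen by name and with earlier results of these data known. Their symbols were matched to Ensembl identifiers, and all 8 were found among the 35697 genes of the table of 2018 and the 55637 genes of the table of 2022.

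All mice were adult male wild-type C57BL/6J. In the libraries of 2018, 3 sham mice, which had the surgery without the impact, were compared with 3 mice at 7 days after TBI by controlled cortical impact (3 mm tip, 1.5 m/s, 1.5 mm deformation, 100 ms dwell). In the libraries of 2022, 3 mice with the same injury and no zileuton were compared with 3 that received zileuton, an inhibitor of 5-lipoxygenase, intraperitoneally in corn oil at 10 mg/kg per day. Both groups of 2022 were injured, and there were no sham mice among them. The study describes its untreated injured mice as a vehicle group, whereas the labels call them only injured. The source labels of the zileuton mice give 7, 8 and 9 days, although all 3 titles give 7 days. The columns of the table of 2022 carry other numbers than the titles, so its mice are called A, B and C here and cannot be tied to those days.

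Each library is RNA of tissue with many cell types, so more cells of a type and more RNA per cell cannot be told apart. Total counts were 42929862 to 48684674 per library in 2018 and 27845562 to 35453257 in 2022. Of the counts from 1 to 20, between 62.3% and 64.4% were even numbers in the libraries of 2018, against 40.1% to 41.9% in 2022, so a count in 2018 is not taken as a separate molecule. All 6 libraries of 2018 held Xist, the RNA of the inactive X chromosome of females, at 18.5 to 23.5 CPM (counts per 1000000, scaled by TMM factors) beside the Y-linked Ddx3y at 51.7 to 66.8 CPM, and those of 2022 held Xist at 0.0343 to 0.197 CPM. What this does to the members was not tested, and levels of the 2 years are not compared. Summed choroid plexus markers were 1044, 15.7 and 52.5 CPM in sham mice and 1196, 1307 and 1125 CPM in the TBI mice of 2018, without overlap. In 2022 they ran from 7.92 to 1028 CPM in TBI mice and from 13.2 to 1438 CPM in zileuton mice. The part of that tissue in the results, also in the comparison of TBI with sham, was not tested.

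IgG bound to an antigen clusters Fc gamma receptors on the cell surface. The receptors encoded by Fcgr1, Fcgr3 and Fcgr4 are activating and pair with the common gamma chain, the product of Fcer1g, whose ITAM is phosphorylated by Src family kinases and then docks Syk, the kinase that starts phagocytosis and cytokine release. The receptor encoded by Fcgr2b is the inhibitory one. It recruits SHIP1, the product of Inpp5d, which removes the lipid signal made by PI3-kinase. FcRn, the product of Fcgrt with beta-2-microglobulin, is not part of that chain and carries IgG through cells and back to their surface. In the brain, microglia and macrophages carry most of these receptors.

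Of the 8 members, 5 lie on chromosome 1, and 4 of these stand close together. In GENCODE M21 on GRCm38, a build that need not be the one the files were made with, Fcgr2b spans chr1:170958617-170976547 on the minus strand, Fcgr4 chr1:171018920-171029761 on the plus strand, Fcgr3 chr1:171051174-171064935 on the minus strand and Fcer1g chr1:171229572-171234365 on the minus strand. Inpp5d lies at chr1:87620312-87720507 (plus), Fcgr1 at chr3:96282909-96293969 (minus), Fcgrt at chr7:45092990-45103851 (minus) and Syk at chr13:52583173-52648792 (plus). Fcgr2b and Fcgrt each overlap an antisense gene in this annotation, Gm38204 and Gm45669, and counting by strand is not stated in the sources used here, so reads of these pairs might not be separated.

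The sequence in front of the start sites is given as a description, and its part in the changes described below was not tested. RefSeq promoter windows of GRCm38.p6, from 250 bases before to 50 bases after a start, were found for all 8 members. They were searched on both strands for GAGGAA, the core bound by PU.1, the product of Spi1 that governs myeloid genes. Among all 27025 genes with a window, GAGGAA was present in 31.3%. Of the members, Fcgr1, Fcgr3, Fcgr4, Inpp5d and the second start of Syk held GAGGAA, and Fcgr2b, Fcer1g and Fcgrt did not. The 30-base windows follow, 5′ to 3′ on the gene's strand, with the match in capitals. TTCCTC is GAGGAA read on the other strand. Each window is named with its position and with the place of the first matched base from the start site.
Fcgr1, chr3:96294007-96294036, minus strand, at -55: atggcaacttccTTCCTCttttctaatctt
Fcgr3, chr1:171059392-171059421, minus strand, at -6: gagtccatttccTTCCTCtttttgtagttc
Fcgr4, chr1:171018892-171018921, plus strand, at -22: aaggctatttacTTCCTCtcttctagtcaa
Syk, chr13:52596861-52596890, plus strand, at -9: tgctgacactttGAGGAAaagccacttccc
Inpp5d, chr1:87620280-87620309, plus strand, at -20: ggtttctataatGAGGAAgttctgtgcagc

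In the 3 activating receptor genes the match lay within 55 bases before the start and was read on the other strand. Inpp5d held a further match from base 4 after its start. How often a match lies so in other genes was not counted. A second motif searched, TTCNNNGAA (N is any base), was present in 9.55% of all genes and, of the members, in Fcgr1 only.

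The 250 bases in front of Fcgr4, the member with the largest rise, hold the GAGGAA match (capitals) near their 3′ end (chr1:171018676-171018925, plus strand). These matches describe the letters in the windows, and binding was not measured.
Fcgr4: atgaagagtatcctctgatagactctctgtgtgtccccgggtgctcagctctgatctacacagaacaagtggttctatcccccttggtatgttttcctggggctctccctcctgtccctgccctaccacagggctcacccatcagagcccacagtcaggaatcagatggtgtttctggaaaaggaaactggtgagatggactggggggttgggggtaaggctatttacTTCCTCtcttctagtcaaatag

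Fcgr3 and Fcgr2b share coding sequence, which bears on how their reads can be counted. In the GENCODE M21 transcripts, 44 of the 1248 windows of 100 bases in the longest Fcgr3 transcript (3.53%) occur in Fcgr2b, and no other pair of members shares such a window. The longest identical run, 129 bases, lies in the coding parts of exons 3 and 4 of both genes (Fcgr3 chr1:171054167-171057792 and Fcgr2b chr1:170966674-170968081, minus strand, each with an intron between the exons) and encodes part of the IgG-binding extracellular region.
Fcgr3 and Fcgr2b: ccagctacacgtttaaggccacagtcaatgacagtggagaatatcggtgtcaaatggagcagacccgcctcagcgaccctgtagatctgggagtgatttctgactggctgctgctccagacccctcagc

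In the table of 2022, Fcgr2b and Fcgr3 were the 2 members with counts that were not whole numbers, in 6 of 6 libraries each. Reads within the shared stretch are uncertain between these genes.

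To find out how the IgG receptor system stood after injury, TBI mice were compared with sham mice of 2018. All 8 members rose after TBI, from 2.23-fold for Fcgrt to 67.4-fold for Fcgr4. The fold change of the inhibitory receptor Fcgr2b was larger than those of the activating Fcgr1 and Fcgr3, and those of the 4 receptors and Fcer1g were larger than those of Syk and Inpp5d. In edgeR's quasi-likelihood test across 19536 genes, 8 of 8 members had an adjusted p under 0.05 and were higher, where 16.8% of all genes tested were called higher and 11.2% lower. All 8 were also at least 2-fold higher, against 8.73% of all genes, and in all 8 every TBI mouse was above every sham mouse, against 24.6% of all genes. As the members were chosen with earlier results of these data known, these counts are a description and not an independent test. The median log2 fold change was 3.20 over the members and 0.02 over all genes tested. The plot of FPKM by mouse shows the gap between the groups.

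**Figure D1:**
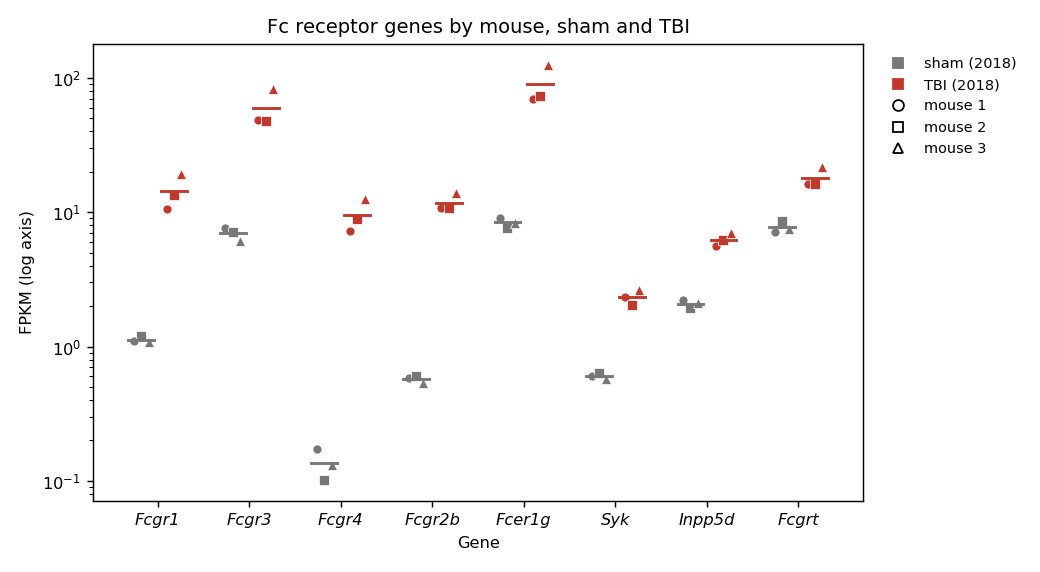
FPKM (level per transcript length and depth, log axis) of the 8 genes in each sham (grey) and TBI (red) mouse of 2018, with the group mean as a bar and the mouse number as the symbol. In every gene the 3 TBI mice lie above the 3 sham mice, and TBI mouse 3 is the highest.

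Fcgr4 encodes the activating receptor of intermediate affinity for IgG2. It was nearly silent in sham mice, with 10, 6 and 8 counts (0.172, 0.102 and 0.132 FPKM). After TBI it reached 444, 528 and 675 counts (7.26, 8.96 and 12.5 FPKM). The sham values rest on very few reads, and the log2 fold change of 6.07 (standard error, SE, 0.317; adjusted p = 8.42e-06) ranked 66th of the 19536 genes. Fcgr4 entered the test because of its level in TBI mice, and a filter of 10 counts in every library leaves it out.

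Fcgr1 encodes the high-affinity receptor, the one that binds single IgG molecules. Its FPKM were 1.10, 1.20 and 1.08 in sham mice and 10.5, 13.4 and 19.4 after TBI. The TBI mice spread far more than the sham mice, and the lowest of them was still above the sham mice. The log2 fold change was 3.63 (SE 0.230, adjusted p = 1.75e-05), or 12.4-fold.

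Fcgr3 encodes the low-affinity activating receptor and had the highest FPKM of the 4 receptors in all 6 mice. It stood at 7.68, 7.06 and 6.15 FPKM in sham mice and at 48.5, 47.9 and 81.8 FPKM after TBI. TBI mice 1 and 2 lay close together and mouse 3 well above them. The log2 fold change was 3.04 (SE 0.224, adjusted p = 3.19e-05), or 8.24-fold. With a two-sided equal-variance test on FPKM, of the kind the study names, the log2 fold change was 3.09 and the adjusted p was 0.0535. The study's criterion is on the unadjusted p, which was under 0.05 in 8 of 8 members with that test.

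Fcgr2b, the inhibitory receptor, had 0.583, 0.599 and 0.537 FPKM in sham mice. After TBI it had 10.7, 10.7 and 13.8 FPKM, and these mice lay closer to each other than in the activating receptors. The log2 fold change of 4.31 (SE 0.141, adjusted p = 2.1e-06), or 19.8-fold, was the second largest of the members and had the smallest adjusted p of the 8.

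Fcer1g, the gamma chain that the activating receptors need for their surface expression and signal, had 9.12, 7.67 and 8.37 FPKM in sham mice and 69.9, 73.0 and 124.9 FPKM after TBI. As in Fcgr3, TBI mouse 3 stood apart from the others. The log2 fold change was 3.36 (SE 0.236, adjusted p = 2.53e-05), or 10.3-fold, and with the equal-variance test on FPKM the adjusted p was 0.0562.

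Among the members, the rises of Syk and Inpp5d, downstream of the receptors, were smaller. Syk, the tyrosine kinase that binds the phosphorylated gamma chain, went from 0.606, 0.632 and 0.571 FPKM to 2.33, 2.03 and 2.65 FPKM, a log2 fold change of 1.90 (SE 0.138, adjusted p = 2.94e-05). Inpp5d, which encodes the phosphatase SHIP1 that acts through Fcgr2b, went from 2.23, 1.93 and 2.11 FPKM to 5.57, 6.23 and 6.94 FPKM, a log2 fold change of 1.53 (SE 0.109, adjusted p = 2.75e-05). The highest sham mouse was far below the lowest TBI mouse in both genes. Fcgrt, the recycling receptor of IgG, went from 7.10, 8.66 and 7.52 FPKM to 16.1, 16.1 and 21.7 FPKM, with a log2 fold change of 1.16 (SE 0.143, adjusted p = 0.000519), the smallest of the members.

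**Figure D2:**
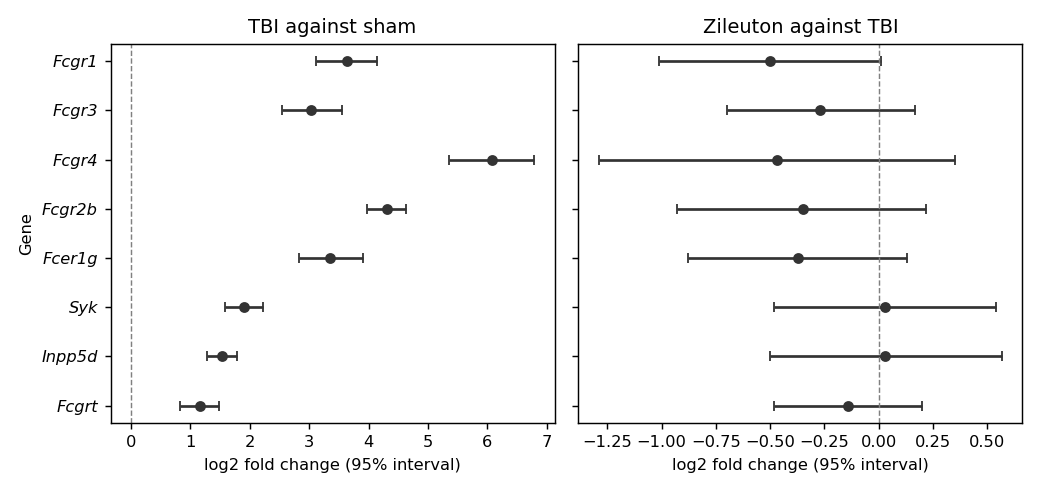
Log2 fold change (points) with its 95% interval (bars) from edgeR for TBI against sham of 2018 (left) and zileuton against TBI of 2022 (right), whose horizontal scales differ. On the left all intervals lie above 0, from 0.83 at the lower end of Fcgrt to 6.79 at the upper end of Fcgr4, and on the right all 8 include 0.

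The order of the levels, which FPKM allow because they are per length, was not the same in the groups. In sham mice it was Fcer1g (8.39 ± 0.726 FPKM, SD, n = 3), Fcgrt (7.76 ± 0.809), Fcgr3 (6.96 ± 0.772), Inpp5d (2.09 ± 0.149), Fcgr1 (1.13 ± 0.0647), Syk (0.603 ± 0.0304), Fcgr2b (0.573 ± 0.0322) and Fcgr4 (0.135 ± 0.0355). Fcer1g and Fcgrt, Fcgrt and Fcgr3, and Syk and Fcgr2b overlapped between mice, and the other neighbours did not. Within every sham mouse, though, Syk stood above Fcgr2b. After TBI it was Fcer1g (89.3 ± 30.9 FPKM), Fcgr3 (59.4 ± 19.4), Fcgrt (17.95 ± 3.22), Fcgr1 (14.4 ± 4.54), Fcgr2b (11.7 ± 1.80), Fcgr4 (9.58 ± 2.68), Inpp5d (6.25 ± 0.686) and Syk (2.34 ± 0.311). Of these neighbours, Fcgr3 and Fcgrt, Fcgr4 and Inpp5d, and Inpp5d and Syk did not overlap between mice, and the others did. Within every TBI mouse, though, Fcer1g stood above Fcgr3, Fcgrt above Fcgr1 and Fcgr2b above Fcgr4. Inpp5d and Syk went from the middle of the order to its end, and all 4 receptors stood above them after TBI.

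The make-up of the receptor pool was compared as each receptor's share of the summed FPKM of the 4. The sum was 9.54, 8.96 and 7.90 FPKM in sham mice and 76.9, 80.9 and 127.5 FPKM after TBI. Fcgr3 held 79.1% ± 1.39 of it in sham mice and 62.1% ± 2.59 after TBI (SD, n = 3). Fcgr2b held 6.53% ± 0.364 and 12.7% ± 1.62, Fcgr4 1.54% ± 0.356 and 10.1% ± 0.852, and Fcgr1 12.9% ± 1.19 and 15.1% ± 1.44. The shares of Fcgr3 in the TBI mice were all below those in the sham mice, the shares of Fcgr2b and Fcgr4 were all above, and those of Fcgr1 overlapped.

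**Figure D3:**
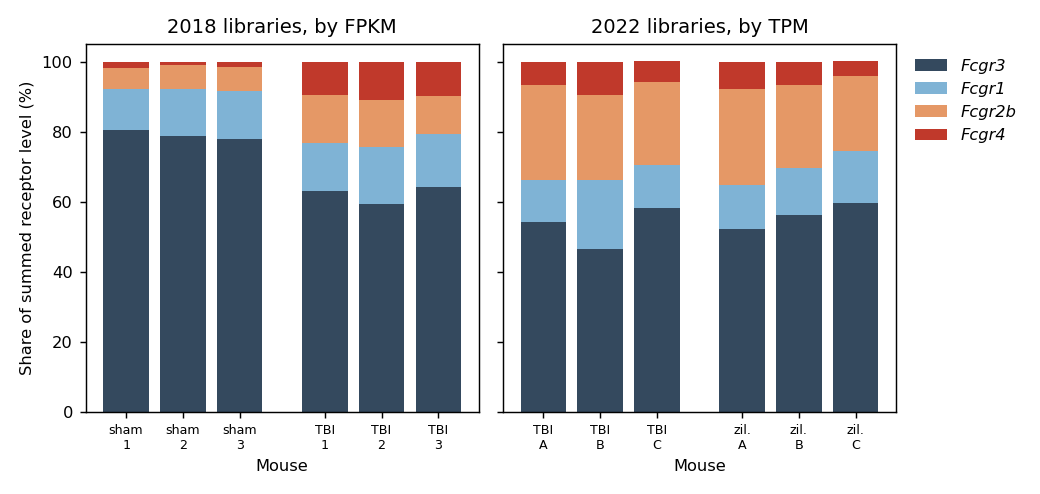
Share (%) of the summed level of Fcgr1, Fcgr2b, Fcgr3 and Fcgr4 held by each, 1 bar per mouse, from FPKM in 2018 (left, sham and TBI) and TPM in 2022 (right, TBI and zileuton, written zil.). Fcgr3 holds 77.9% to 80.6% in sham mice and 59.2% to 64.1% in the TBI mice of 2018, and in 2022 its shares overlap between the groups.

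The balance of activating and inhibitory receptors was tested directly, as log2 ratios of CPM within each mouse. The exact permutation test was two-sided and, with 3 mice in each group, its smallest possible p is 0.1. In each comparison 14 ratios were tested, among them Fcgr3 over Fcgr2b and its inverse, which give the same p. The adjustment therefore counts that result in both directions. Fcgr3 over Fcgr2b was 1.98, 1.82 and 1.78 in sham mice and 0.44, 0.43 and 0.83 after TBI, a difference of -1.30 (exact p = 0.1, adjusted over the 14 ratios 0.127). Fcgr1 over Fcgr2b also shifted toward the inhibitory receptor, by -0.71 (from -0.19 ± 0.06 to -0.90 ± 0.26, SD, n = 3). Fcgr4 over Fcgr2b shifted the other way, by 1.79 (from -4.32 ± 0.41 to -2.52 ± 0.22). The groups did not overlap in any of these 3 ratios, and the last 2 had the same p. Of the 3 activating receptors, Fcgr4 alone shifted upward against Fcgr2b.

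For the gamma chain and its receptors, Fcer1g over the sum of Fcgr1, Fcgr3 and Fcgr4 was -1.05 ± 0.16 in sham mice and -0.97 ± 0.04 after TBI (log2 ratio, SD, n = 3), a difference of 0.07 with overlapping groups (exact p = 0.6). Syk over Inpp5d, the kinase against the phosphatase, was -1.58, -1.31 and -1.58 in sham mice and -0.96, -1.32 and -1.09 after TBI, a difference of 0.37 with overlapping groups (exact p = 0.2).

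Markers of the cells that carry these receptors moved with the members. All 10 of 10 markers of microglia and macrophages rose, among them C1qa and C1qc, which encode chains of complement C1q (log2 fold changes 3.25 and 3.15), and their summed level was 282.7 to 339.2 CPM in sham mice and 1749, 2054 and 2775 CPM in TBI mice 1, 2 and 3. All 8 of 8 markers of homeostatic microglia rose as well, with a smaller median log2 fold change of 1.22 against 2.97. Among them was Cx3cr1 (1.91), the fractalkine receptor. Summed monocyte markers (6 of 6 rose, with F13a1 and Ccr2 the most abundant) were 3.40 to 3.85 CPM in sham mice and 26.2, 26.4 and 51.3 CPM after TBI, and summed neutrophil markers (4 of 5 tested rose, with S100a9 and S100a8 the most abundant) were 0.799 to 1.37 CPM and 16.3, 25.9 and 63.0 CPM. TBI mouse 3 was highest in these 4 sums and in all 8 members. Without it, 8 of 8 members still had an adjusted p under 0.05, with log2 fold changes from 0.99 for Fcgrt to 5.82 for Fcgr4. Some markers, such as S100a9 (0.130 to 0.505 CPM in sham mice) and Ccr2 (0.130 to 0.421 CPM), entered the test only through their level in TBI mice. Of all genes tested, 16.8% were called higher.

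Other cell types moved too. Of the border macrophage markers 3 of 5 rose (Mrc1 and Pf4 the most abundant), and their sum was 13.1 to 16.2 CPM in sham mice and 22.0 to 52.8 CPM after TBI. Of T and NK cell markers 2 of 3 tested rose (sum 7.65 to 21.3 CPM and 4.63 to 30.4 CPM, with Cd4 and Gzma the most abundant). Most of that sum was Cd4, which was not called. Of B and plasma cell markers 1 of 2 rose, Sdc1 (2.51 to 3.07 CPM and 4.47 to 9.84 CPM). Among mast cell markers Tpsb2 rose (log2 fold change 3.19) and Kit fell (-0.49). Their sum (32.4 to 41.2 CPM and 26.7 to 33.6 CPM) was nearly all Kit, with means of 35.9 and 25.6 CPM, so it does not give a mast cell level. Gzma and Tpsb2, at 0 to 0.210 CPM in sham mice, entered the test only through their level in TBI mice. So did Cd3g, the other T and NK cell marker that rose: in sham mouse 3 Cd4 made up the whole sum of 21.3 CPM. Endothelial markers rose in 5 of 7 (127.2 to 166.5 CPM and 184.1 to 270.9 CPM), astrocyte markers in 4 of 5 (3526 to 3933 CPM and 6823 to 7150 CPM) and oligodendrocyte markers in 4 of 5 (4185 to 4684 CPM and 4930 to 8986 CPM). Neuron markers fell in 3 of 5, with Snap25 and Syt1 the most abundant (6264 to 6867 CPM and 3798 to 4912 CPM). None of the 5 choroid plexus markers was called, although their sums did not overlap (15.7 to 1044 CPM and 1125 to 1307 CPM). Every marker in these lists had counts in at least 1 library of 2018. The part of each cell type in the members' rise was not tested.

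Set against the microglia and macrophage markers within each mouse, the members split into 3 sets. As log2 CPM minus the mean log2 CPM of the 10 markers, Fcgr4 went from -6.56 ± 0.40 to -3.35 ± 0.10 (SD, n = 3) and Fcgr2b from -2.24 ± 0.05 to -0.82 ± 0.16, differences of 3.21 and 1.41. The differences of Fcgr1 (0.70) and Fcer1g (0.43) were also positive, without overlap between the groups. Fcgr3 differed by 0.12 with overlapping groups (exact p = 0.5). The differences of Syk (-0.99), Inpp5d (-1.35) and Fcgrt (-1.73) were negative, again without overlap. Over all genes, 1.21% were higher and 94.5% lower without overlap on this scale, so the negative differences of Syk, Inpp5d and Fcgrt are what most genes showed. The 7 differences without overlap had the smallest exact p, 0.1 (adjusted 0.127).

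**Figure D4:**
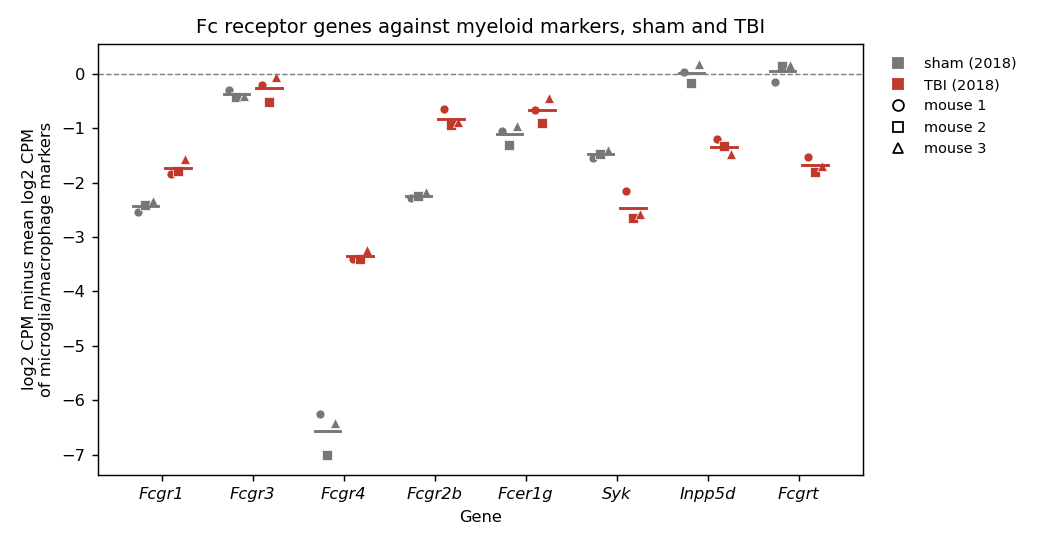
Log2 CPM of each gene minus the mean log2 CPM of 10 microglia and macrophage markers, per sham (grey) and TBI (red) mouse of 2018, with group means as bars and 0 dashed. The TBI mice lie above the sham mice in Fcgr4, Fcgr2b, Fcgr1 and Fcer1g, overlap with them in Fcgr3 and lie below them in Syk, Inpp5d and Fcgrt; against homeostatic markers Syk and Inpp5d turn positive.

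The reference decides part of this split. Against the 8 homeostatic microglia markers in place of the 10, the differences were 4.77 for Fcgr4, 2.97 for Fcgr2b, 2.26 for Fcgr1, 1.99 for Fcer1g and 1.68 for Fcgr3, and Syk (0.57) and Inpp5d (0.20) turned positive while Fcgrt stayed at -0.18.

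The rest of the pathway was described with 7 lists, 113 genes in all, of which 98 were expressed enough to be tested. These lists too were chosen with earlier results of these data known. After TBI, 57 were higher and 5 were lower at an adjusted p under 0.05, against the 16.8% and 11.2% of all genes given above, and the median log2 fold change was 0.69. Those that fell included Ighg2c, Pik3ca, Prkcb and Wasl, named after their values were seen.

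Ligands were the immunoglobulin genes. Of 8, 5 were tested, and the IgG genes Ighg1, Ighg2b and Ighg3 were too low. Igkc, the kappa light chain, rose to 1.80 ± 0.862 CPM (SD, n = 3; log2 fold change 2.56, adjusted p = 0.00223) and Igha, the IgA heavy chain, to 1.44 ± 0.835 CPM (2.63, adjusted p = 0.0101). Ighg2c, the heavy chain of an IgG2 subclass, went from 5.56 ± 1.10 to 2.98 ± 0.551 CPM (-0.90, adjusted p = 0.0172), and Ighm, the IgM heavy chain and the most abundant of the list, had a log2 fold change of 0.08 (adjusted p = 0.801). The constant-region genes resemble each other, so the split of reads between them is uncertain. Igha, at 0.0865 to 0.311 CPM in sham mice, entered the test only through its level in TBI mice. The list's median was 0.51.

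Among other Fc receptors, 6 of 14 were tested and 4 rose, with a median of 2.37. B2m, the light chain that Fcgrt needs, reached 614.2 ± 171.7 CPM with a log2 fold change of 2.81 (adjusted p = 1.89e-05), more than the 1.16 of Fcgrt. Fcrls, an Fc receptor-like gene of microglia, rose by 2.86 (adjusted p = 0.000155) and Trim21, the cytosolic receptor for antibody, by 2.23 (adjusted p = 0.000138). The IgE receptor gene Fcer1a and the polymeric immunoglobulin receptor gene Pigr were among the 8 too low to test.

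Receptors and adaptors that signal like Fcer1g rose in 6 of 8 tested, with a median of 3.04. Of these, Clec4d, Clec4e, Clec4n and Cd79b entered the test only through their level in TBI mice. In sham mice Clec4d and Clec4e were at 0 to 0.0421 CPM, Clec4n at 0.168 to 0.533 CPM and Cd79b at 0.147 to 0.244 CPM. The median was unchanged with Clec4d at a lower bound, a log2 fold change of 6.95 for 3 counts in each sham library. Tyrobp, the ITAM adaptor DAP12, reached 120.8 ± 40.0 CPM (log2 fold change 3.25, adjusted p = 3.16e-05). Clec4d, a C-type lectin that signals through Fcer1g, was at 0 counts in all sham mice and at 337, 193 and 569 in the TBI mice, and Clec4n, the lectin Dectin-2, rose by 4.22 (adjusted p = 0.00147).

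Src family kinases and their regulators rose in 6 of 11 and fell in none, with a median of 0.69. Among them was the myeloid kinase gene Fgr, whose counts were 6, 0 and 6 without injury and 115, 175 and 154 with it (adjusted p = 0.000362). It entered the test only through its level in TBI mice, and its fitted fold rests on these few sham counts. Of the most abundant, the kinase genes Fyn and Src are expressed in neurons too. Fyn rose by 0.31 (adjusted p = 0.00757), Src had a log2 fold change of -0.01 (adjusted p = 0.967), and Pag1, an adaptor that holds the inhibitory kinase Csk, had 0.19 (adjusted p = 0.178).

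Syk's adaptors and effectors rose in 19 of 27 and fell in 2, with a median of 1.23. Pik3ap1, the PI3-kinase adaptor BCAP, rose most (32.0 ± 5.29 CPM, 3.06, adjusted p = 7.52e-06). Prkcb, a protein kinase C gene that neurons express strongly, fell by 0.62 on the log2 scale (adjusted p = 0.000715). The abundant Pik3r1 and Prkca were at 0.03 and -0.12 (adjusted p = 0.854 and 0.598).

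The actin machinery of phagocytosis rose in 15 of 28, fell in 1 and had a median of 0.36. Rac2, the Rac GTPase of blood cells, rose most, by 3.77 (adjusted p = 1.78e-05), and Wasl, the widely expressed relative of Was, fell by 0.32 (adjusted p = 0.0147). Cfl1, Actr2 and Cdc42, which most cells express, were at 0.06, -0.06 and 0.22 (adjusted p = 0.672, 0.611 and 0.0826).

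Inhibitory phosphatases and adaptors other than Inpp5d rose in 5 of 13 and fell in 1, with a median of 0.61. Ptpn6, the phosphatase SHP-1 of blood cells, reached 27.8 ± 5.59 CPM and rose by 3.01 (adjusted p = 1.71e-05), against 1.53 for Inpp5d. Ptpn11 and Cbl were at 0.10 and -0.09 (adjusted p = 0.444 and 0.532).

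Whether zileuton changed the IgG receptor system after injury was asked in the mice of 2022. None of the 8 members was called. Levels were lower on average with zileuton in 6 of 8, by up to 0.50 on the log2 scale in Fcgr1, and the groups overlapped in all 8. In edgeR's quasi-likelihood test across 17363 genes, 0 had an adjusted p under 0.05 (percent called 0), 1186 had an unadjusted p under 0.05, and DESeq2 called 28. At an unadjusted p under 0.05, 0 of 8 members were lower and 0 higher, against 3.90% and 2.93% of all genes, and 0 of 8 were lower without overlap, against 7.04%. At an unadjusted p under 0.05, DESeq2 gave 1 member as lower (3.65% of all genes), edgeR without a filter 2 (3.47%) and edgeR with the length trend removed 1 (2.56%). None of these gave a member an adjusted p under 0.05. The median log2 fold change was -0.31 over the members and 0.003 over all genes tested.

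**Figure D5:**
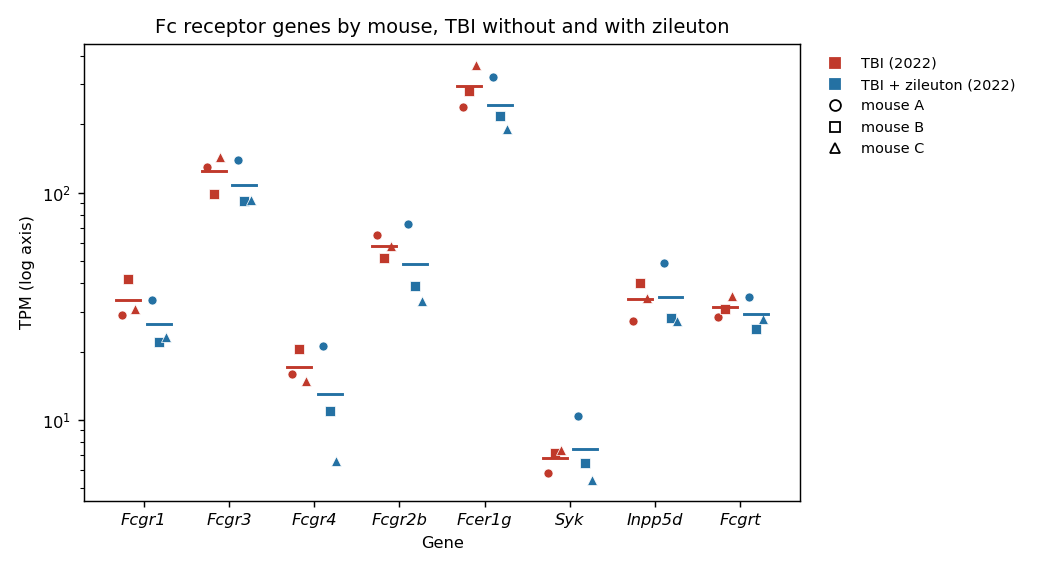
TPM (transcripts per 1000000, log axis) of the 8 genes in each TBI mouse without (red) and with zileuton (blue) of 2022, with the group mean as a bar and the mouse letter as the symbol. The groups overlap in every gene, and zileuton mouse A is the highest zileuton mouse in all 8.

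Among the activating receptors, Fcgr1 had 28.9, 41.7 and 30.9 TPM in TBI mice A, B and C and 33.8, 22.0 and 23.3 TPM in zileuton mice A, B and C. Zileuton mice B and C lay below all TBI mice and mouse A between them. The log2 fold change of -0.50 (95% interval -1.01 to 0.01, adjusted p = 0.713 from edgeR) was the largest of the members. Fcgr4 had 16.0, 20.5 and 14.8 TPM and 21.3, 11.0 and 6.62 TPM with zileuton, so the zileuton group held both the highest and the lowest mouse (-0.47, 95% interval -1.29 to 0.35, adjusted p = 0.769). Fcgr3 had 129.4, 99.0 and 144.3 TPM and 140.0, 92.4 and 93.3 TPM (-0.27, 95% interval -0.70 to 0.17, adjusted p = 0.759).

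The inhibitory Fcgr2b had 65.0, 51.8 and 58.5 TPM in TBI mice and 73.1, 38.9 and 33.5 TPM with zileuton. Here too mouse A was above and mice B and C were below all TBI mice (-0.35, 95% interval -0.93 to 0.22, adjusted p = 0.757). Fcer1g had 239.9, 280.5 and 366.4 TPM and 322.7, 217.4 and 191.4 TPM (-0.37, 95% interval -0.88 to 0.13, adjusted p = 0.729).

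Syk and Inpp5d lay at 0.03 each. Syk had 5.87, 7.15 and 7.35 TPM and 10.4, 6.44 and 5.44 TPM (95% interval -0.48 to 0.54, adjusted p = 0.977), and Inpp5d 27.4, 40.3 and 34.6 TPM and 49.2, 28.2 and 27.4 TPM (-0.50 to 0.57, adjusted p = 0.974). In both, zileuton mouse A was the highest of all 6 mice. Fcgrt had 28.5, 30.8 and 35.2 TPM and 34.9, 25.0 and 27.7 TPM (-0.14, 95% interval -0.48 to 0.20, adjusted p = 0.831). All 8 intervals include no change, and those of Fcgr1 and Fcgr4 also include a log2 fold change of -1.

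The mice of 2022 differed among themselves in the same markers. Summed microglia and macrophage markers were 1603, 2299 and 2669 CPM in TBI mice A, B and C and 2495, 1790 and 1542 CPM in zileuton mice A, B and C, and none of the 10 was called. Homeostatic microglia markers summed to 702.9 to 1028 CPM and 729.2 to 968.1 CPM, monocyte markers to 19.0 to 30.1 CPM and 15.0 to 30.7 CPM, and neutrophil markers to 3.85 to 6.38 CPM and 1.33 to 7.17 CPM. Zileuton mouse A had the highest sum of its group in these 4 lists. It was also highest in the border macrophage, B and plasma cell, endothelial, astrocyte and choroid plexus lists. In the T and NK cell, mast cell, neuron and oligodendrocyte lists it was not the highest. No marker of any list was called with zileuton, and the neutrophil marker Ly6g was at 0 in all libraries of 2022. Without zileuton mouse A, the log2 fold change was negative in 8 of 8 members and in 49.5% of all genes. An unadjusted p under 0.05 and a negative value were then found in 5 of 8 members and in 5.94% of all genes, and an adjusted p under 0.05 in none (edgeR). The unadjusted calls over all genes in either direction went from 1186 of 17363 to 1909 of 17632 with this omission. Without TBI mouse A, which had the lowest microglia and macrophage sum of the TBI mice, 8 of 8 members and 50.7% of all genes were negative, and 2 of 8 members and 3.85% of all genes were so at an unadjusted p under 0.05. Leaving out TBI mouse B or C, or zileuton mouse B or C, left 6 of 8 members negative each time. With each of these omissions 0 of 8 members had an unadjusted p under 0.05 (edgeR). The part of the markers in these differences between omissions was not tested.

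The receptor pool had the same order in both groups of 2022. Fcgr3 held 52.9% ± 5.90 of the summed TPM in TBI mice and 56.0% ± 3.68 with zileuton (SD, n = 3), Fcgr2b 25.0% ± 1.90 and 24.1% ± 2.97, Fcgr1 14.7% ± 4.24 and 13.6% ± 1.15, and Fcgr4 7.43% ± 1.94 and 6.28% ± 1.89. The shares of all 4 overlapped between the groups. Fcgr3 over Fcgr2b differed by 0.16 (exact p = 0.6), Fcgr1 over Fcgr2b by -0.08 (exact p = 0.9), Fcgr4 over Fcgr2b by -0.19 (exact p = 0.6) and Syk over Inpp5d by -0.05 (exact p = 0.8), each as a log2 ratio.

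Against the microglia and macrophage markers, 3 members differed without overlap, 2 of them higher with zileuton (4.38% of all genes) and 1 lower (0.743%). Fcer1g was -0.69, -0.83 and -0.61 in TBI mice and -0.86, -0.89 and -0.86 with zileuton, a difference of -0.16. Syk was -2.61, -2.73 and -2.77 and then -2.39, -2.58 and -2.50, a difference of 0.21, and Inpp5d was -1.35, -1.13 and -1.16 and then -0.97, -0.95 and -0.94, a difference of 0.26. Each had the smallest exact p, 0.1, and an adjusted p of 0.467 over the 14 ratios. The difference of Inpp5d was 0.14 on TPM. Against the homeostatic markers the differences were 0.12 for Inpp5d, 0.07 for Syk and -0.30 for Fcer1g. The other 5 members overlapped.

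Of the 113 pathway genes, 92 were tested with zileuton. Of these, 0 were called by edgeR, 3 were higher and 3 lower at an unadjusted p under 0.05, and 60 had a negative log2 fold change, with a median of -0.09. The 3 with a negative value were B2m, the partner of Fcgrt (-0.54, 95% interval -0.93 to -0.16), Cd247, the CD3 zeta chain (-1.83), and Arpc5, a subunit of the Arp2/3 complex (-0.38). The 3 with a positive value were the protein kinase C genes Prkcb (0.31) and Prkca (0.27) and Ptpn11, the phosphatase SHP-2 (0.22). The adjusted p of each of these 6 was 0.713. Tyrobp was at -0.34 and Clec4n at -0.89 (adjusted p = 0.763 and 0.713). Medians of the 7 lists ran from -0.40 for the receptors and adaptors that signal like Fcer1g to -0.002 for Syk's adaptors and effectors.

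Genes whose pattern was most like each member were sought among 16516 genes tested in both years, by Pearson's r of log2 CPM, centred within each year, over the 12 libraries. The points share libraries and the step from sham to TBI. Between 411 and 735 genes had r above 0.95 with a member, and the leading genes differ little from the next. For Fcgr1 they were Irf7 (r = 0.997), Oas1a (0.996) and Lgals9 (0.996), of which Irf7 and Oas1a are interferon-stimulated genes. For Fcgr2b they were Lcp1 (0.994), C5ar1 (0.994) and Clec4d (0.994), and for Fcgr4 Pik3ap1 (0.995), C5ar1 (0.9945) and Milr1 (0.994). C5ar1 is the receptor for the complement fragment C5a.

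Fcgr3 was most like Ccl6 (0.998), Ehd4 (0.991) and Plek (0.990), and Fcer1g most like Cyba (0.997), Plek (0.997) and Ly86 (0.996). Plek encodes the cytoskeletal protein pleckstrin and Cyba a subunit of the phagocyte NADPH oxidase. Syk was most like Tnfrsf1b (0.996), Tor4a (0.991) and F13a1 (0.991), and Inpp5d most like Vsir (0.993), Cd9 (0.993) and Man2b1 (0.992). Fcgrt had the lowest leading values, with Mfsd1 (0.986) and Rpl18 (0.986) among them. Among the members themselves, Fcgr2b and Fcgr4 were most alike (r = 0.993).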

How the data were processed

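RNA of pericontusional tissue was sequenced as paired-end, poly(A)-selected libraries from 12 mice in 4 groups of 3, which were taken from the labels. For the mice of 2018 the authors deposited raw counts and FPKM. For those of 2022 the authors deposited estimated counts, of which 13.73% were not whole and which were rounded here, and TPM. The plan had assumed whole counts there. The submitters' processing notes name HISAT2, featureCounts, Subread, DESeq2 and GRCm39, and their versions, roles and strand setting are not given in the sources used here. Symbols were matched for 34808 and 52081 identifiers, and 223 identifiers of assembled transcripts have none.

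The members and lists were chosen with earlier results of these data known. Counts were tested within each year by edgeR 4.0.16 (TMM, filterByExpr, quasi-likelihood test, Benjamini-Hochberg over all genes tested, threshold 0.05) in R 4.3.3, and 95% intervals use the moderated standard error. Scripts were tested on simulated data. Ratios were compared by two-sided exact permutation tests. Alternatives were DESeq2 1.42.0, limma 3.58.1 on log2(FPKM or TPM + 1 or 0.1), an equal-variance test, other filters (no filter, at least 10 counts in every library), a length trend, a replicate block and the omission of each mouse. The genes named were all members, in each pathway list the 3 with the highest mean CPM and the called genes with the largest rise and fall, in each marker list the 2 with the highest mean CPM, and the 3 most like each member. Some items that this rule names are not reported here. The motifs, the pathway genes that fell and those with an unadjusted p under 0.05 were named after values were seen. So were Clec4e, Cd79b and Cd3g. Depth was 27845562 to 48684674 counts per library, and as mice of a group are not stated to be separate experiments, p-values measure only the spread between these mice.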

Additional observations from a re-analysis of the deposited data

How the results depend on the processing

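After TBI 8 of 8 members were called under every alternative but a filter of 10 counts in every library, which Fcgr4 did not pass (7 of 7), and the equal-variance test on FPKM, which left 6 (8 at an unadjusted p under 0.05), with Fcgr3 (adjusted p = 0.0535) and Fcer1g (0.0562) above the threshold. Leaving out each mouse gave 8 to 8. On log2(FPKM + 1) the fold changes of the low genes shrank, to 3.19 for Fcgr4 and 3.01 for Fcgr2b. The pathway genes called went from 62 to 40 with the equal-variance test and were 54 to 62 when a mouse was left out. With the length trend removed they were 53 higher and 9 lower in place of 57 and 5, and the median of all genes moved to -0.17. With zileuton no member or pathway gene was called under any alternative, and leaving out each mouse gave 0 to 0. The direction turned in Syk with the replicate block (-0.01), without the length trend (-0.04), and between -0.27 and 0.19 as mice were left out. It turned in Inpp5d with limma at a pseudocount of 1 (-0.002) and 0.1 (-0.003), and between -0.18 and 0.20 as mice were left out. The lowest values were those without zileuton mouse A, and those without TBI mouse A were -0.09 and -0.17. Against homeostatic markers the ratios after TBI turned to 0.57 in Syk and 0.20 in Inpp5d, and with zileuton they were 0.07 in Syk, 0.12 in Inpp5d and -0.30 in Fcer1g. On TPM that of Inpp5d was 0.14. The cause was not tested. Mice of the same number did not deviate together (correlations -0.0944 to -0.0228 in 2018 and -0.282 to 0.0628 in 2022), and the main fit does not pair them. Deviations from the mean of 3 mice are not independent, so these correlations cannot exclude a pairing. With the replicate block 8 members and 59 pathway genes were called after TBI, and 0 and 0 with zileuton. With 3 mice a group the ratios cannot pass 0.05, and the sham level of Fcgr4 rests on 6 to 10 counts.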
